A study of Mus musculus with 24 samples.

Results

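The complement system is represented here by 33 genes chosen by symbol: the components of the classical, lectin, alternative and terminal pathways with their regulators and receptors. All 33 symbols were found among the 54432 genes of the deposited liver table, none occurred more than once, and all 33 were among the 19810 genes tested, those averaging 1 normalized count or more. The members were divided by the cells known to make them into 22 hepatocyte-made genes, 6 genes made by macrophages or other myeloid cells, and 5 genes made by other or many cell types. The rule for membership uses names and no measured value, but the members were chosen with earlier results of these data known.

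Complement proteins circulate as inactive precursors, most of them secreted by hepatocytes, and are cut in a cascade that starts from antibody-bound C1q, from the binding of mannose-binding lectin to sugars, or from slow spontaneous activation of C3. The branches meet at C3 and C5, whose fragments coat particles and call in leukocytes, and end in the membrane attack complex, a pore of C5b, C6, C7, C8 and C9 in the target membrane. C1q and properdin are known as products of macrophages and other myeloid cells, so whole liver holds transcripts of both sources.

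RNA from whole liver of 24 male C57BL/6 mice was sequenced, 6 mice in each of 4 groups and 3 of each group in each of 2 cohorts. The genotypes were wild type (WT), Trib1 Flox/Flox (Trib1-KO), Cebpa Flox/Flox (Cebpa-KO) and Trib1;Cebpa Flox/Flox (DKO). Mice of all groups, WT included, were 20 to 21 weeks old when they were given AAV-Cre, an adeno-associated virus encoding the recombinase that excises floxed DNA, into the peritoneum. Livers were taken 4 weeks later from mice kept on chow, at midday after a 4 h fast, and each library is 1 mouse. The promoter that drove Cre was not given in the sources used here. Trib1 encodes a pseudokinase that brings substrates such as C/EBPα to a ubiquitin ligase, and Cebpa encodes C/EBPα, a transcription factor of hepatocytes and myeloid cells.

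Libraries held 23385895 to 27190701 normalized counts, with an estimated 18636500 to 34297100 reads behind them. Cebpa was 6019 ± 1057 normalized counts in WT, 2668 ± 359 in the libraries labelled Trib1-KO, 82.2 ± 17.5 in Cebpa-KO and 82.4 ± 18.1 in DKO (mean ± SD, n = 6 each). Trib1 went against its label, at 1224 ± 204 in WT and 4237 ± 358 in the libraries labelled Trib1-KO, 333 ± 158 in Cebpa-KO and 732 ± 259 in DKO. Gene-level values do not show whether the floxed stretch is missing from these Trib1 transcripts, so the groups are called by their labels. The WT library B3 stood apart from the other WT libraries on the second principal component of all tested genes, at 15.3 against 39.5 to 51.0. In whole tissue, fewer cells of a type and less RNA per cell cannot be told apart.

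Of the terminal genes, 5 lie on 2 chromosomes and are shown by the sequence before their transcription start, because among them C6 rose, C8a, C8b and C9 fell and C7 was not called in the libraries labelled Trib1-KO. C8b and C8a face each other tail to tail on chromosome 4, 11.13 kb apart, and C6, C7 and C9 lie on chromosome 15, with 173.794 kb between C6 and C7 and 1381.59 kb between C7 and C9. Sequences are from RefSeq on GRCm38.p6, 5′ to 3′ on the gene's strand, and cover up to 250 bases before the RefSeq start: chr15:4726960-4727174 for C6 (plus strand, ending 36 bases before the start), chr15:5063774-5064023 for C7 (minus strand), chr4:104876399-104876648 for C8a (minus strand), chr4:104766067-104766316 for C8b (plus strand) and chr15:6445096-6445326 for C9 (plus strand, ending 20 bases before the start). Capitals mark matches, on either strand, to the C/EBP letters TTNNGNAA (in C6, C7, C8b and C9, all on the strand opposite to the one printed) or the STAT letters TTCNNNGAA (in C7 and C8a).
C6: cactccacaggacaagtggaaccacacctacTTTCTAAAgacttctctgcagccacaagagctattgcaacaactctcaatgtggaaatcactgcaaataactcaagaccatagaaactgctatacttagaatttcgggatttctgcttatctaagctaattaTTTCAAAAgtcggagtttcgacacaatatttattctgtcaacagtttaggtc
C7: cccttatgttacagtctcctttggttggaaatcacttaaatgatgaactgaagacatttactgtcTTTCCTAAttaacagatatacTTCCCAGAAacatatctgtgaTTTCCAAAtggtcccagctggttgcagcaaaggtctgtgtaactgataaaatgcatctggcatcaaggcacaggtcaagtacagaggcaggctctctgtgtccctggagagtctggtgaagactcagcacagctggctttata
C8a: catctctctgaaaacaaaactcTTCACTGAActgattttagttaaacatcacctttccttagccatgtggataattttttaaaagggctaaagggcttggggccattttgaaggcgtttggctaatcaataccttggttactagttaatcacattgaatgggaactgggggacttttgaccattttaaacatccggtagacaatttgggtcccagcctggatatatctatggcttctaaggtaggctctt
C8b: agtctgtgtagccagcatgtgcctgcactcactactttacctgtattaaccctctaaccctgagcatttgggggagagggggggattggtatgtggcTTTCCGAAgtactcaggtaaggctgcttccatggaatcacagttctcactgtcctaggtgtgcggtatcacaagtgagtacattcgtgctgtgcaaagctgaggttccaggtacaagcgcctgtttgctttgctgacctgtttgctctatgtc
C9: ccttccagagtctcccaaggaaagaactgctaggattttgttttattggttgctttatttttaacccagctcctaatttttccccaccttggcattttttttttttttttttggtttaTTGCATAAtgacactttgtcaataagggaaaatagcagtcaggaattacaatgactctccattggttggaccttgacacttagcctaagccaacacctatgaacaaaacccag

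Matches were no more than descriptions of these windows, and their relation to the differences between groups was not tested. A TTNNGNAA match was present in 11 of the 25 member promoters in the table (44%), in 8 of 15 hepatocyte-made members (53.3%) and in 36.9% of all 27025 promoters of the same length. C6 held 2 such matches, at -219 to -212 and -87 to -80 from the start, and C7 also held 2. C8a held none, only a TTCNNNGAA match at -228 to -220, a pattern found in 7.18% of all promoters and 12% of the members. The HNF1 letters GTTAATNAT were in the promoters of C4bp and Hc (8% of the members, against 0.781% of all), the NF-kB letters GGGNNTTCC in that of Cd55 (4% against 4.88%), and the PU.1 letters GAGGAAGT in that of C1qc (4% against 2.44%). Neither the full C/EBP palindrome TTGCGCAA nor the HNF4 letters CAAAGTCCA were in any of the 25 (0.17% and 0.381% of all promoters).

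Differences are log2 values of a group of libraries minus another, fitted with limma on log2 of the normalized count plus 1, and are given with their standard error after ±. A gene was called where limma's adjusted p (Benjamini-Hochberg over all 19810 genes) was under 0.05, and folds are on the same scale. The exact permutation test of 6 against 6 libraries cannot give a 2-sided p below 0.00216, which is what it gave wherever groups are said not to overlap. Where 3 values are given for a group, they are the lowest, the median and the highest of its 6 libraries in normalized counts. Levels of different genes are compared only per kilobase of merged exon.

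In WT liver the members spanned more than 3 orders of magnitude. Per kilobase, C3, the central component, stood highest at a mean of 31525 normalized counts, followed by Vtn (vitronectin, which keeps the terminal complex soluble) at 28244 and Clu (clusterin, of like function) at 18023. At the low end were Cfd (factor D, the adipose-derived protease of the alternative pathway) at 18.8, C7 at 17.7 and the anaphylatoxin receptors C3ar1 and C5ar1 at 16.5 and 9.37. The subunits of C8 were at 5999 (C8a), 3945 (C8b) and 4557 (C8g) per kilobase, and the chains of C1q at 978, 967 and 791. Together the 33 genes made up a median of 1.95% of a WT library's normalized counts, 1.63% in the libraries labelled Trib1-KO, 1.91% in Cebpa-KO and 2.35% in DKO.

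The hepatocyte-made and myeloid-made members moved in opposite directions in the libraries labelled Trib1-KO. Against WT, 17 members were lower, 8 were higher and 8 were not called. Over all genes tested, 10.9% were called lower, 11.8% higher and 22.7% in either direction. Of the 22 hepatocyte-made genes 17 were lower and 1, C6, was higher, with a median difference of -0.61, and all 6 myeloid-made genes were higher, with a median of 0.78, where the median of all genes was 0.0077. In 16 members every library labelled Trib1-KO was below every WT library, and in 5 every one was above (5.71% and 6.26% of all genes). Leaving out the WT library B3 left the counts at 8 and 17. Scaling without 22 genes of the major urinary proteins, abundant liver secretory products, shifted the median of all genes by 0.23 upward and gave 10 higher and 14 lower members, with the median member at -0.14 where that of all genes was 0.24.

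**Figure D1:**
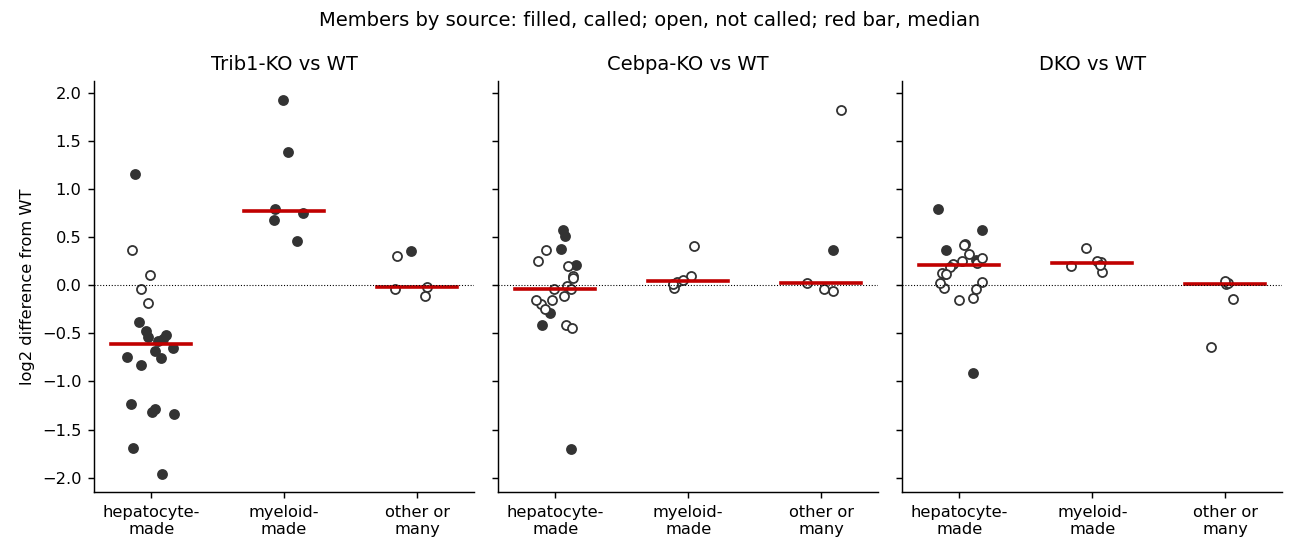
Log2 difference from WT (y axis) of each of the 33 members, by the cells known to make them (x axis), for the Trib1-KO-labelled libraries, Cebpa-KO and DKO. Filled points passed limma's adjusted p of 0.05, open points did not, and the bar is the median: -0.61 and 0.78 for the hepatocyte-made and myeloid-made genes in the libraries labelled Trib1-KO. C6 is the filled point at 1.16 among hepatocyte-made genes in the left panel and at -1.71 in the middle one.

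The terminal pathway held the largest falls and the rise of C6. C8a encodes the α chain of C8, the first component to penetrate the membrane. It ranged from 16940.3 through a median of 23034 to 25356 normalized counts in WT and from 4316 through 5331 to 8907 in the libraries labelled Trib1-KO. The groups were far apart, and C8a was 3.89-fold lower (-1.96 ± 0.14, limma adjusted p = 1.1e-10). In Cebpa-KO (26882, 32193 and 41634) and in DKO (33602, 35846 and 45079) every library was above every WT library, by 0.58 ± 0.14 (limma adjusted p = 0.0079) and 0.80 ± 0.14 (0.00065).

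C8b, the β chain beside it on the chromosome, fell with C8a in the libraries labelled Trib1-KO but not with the same pattern elsewhere. Its lowest, median and highest values were 7398, 8744 and 11088 in WT, 2286, 2570.01 and 4042 in the Trib1-KO-labelled libraries, 5338, 7967 and 12154 in Cebpa-KO and 7382, 10474 and 12913 in DKO. The fall of -1.69 ± 0.16 (limma adjusted p = 2.2e-08) was 3.23-fold, and the values of Cebpa-KO and DKO spanned those of WT. C8g, the lipocalin-like γ chain, is encoded on chromosome 2 and was lower by a smaller amount, at -0.48 ± 0.07 (limma adjusted p = 2.4e-05), from 5122 to 7152 normalized counts in WT to 3894 to 4896. The log2 ratio of C8a to C8g counts, which is not corrected for length, had a median of 1.95 in WT, 0.31 in the libraries labelled Trib1-KO, 2.40 in Cebpa-KO and 2.54 in DKO, so the 3 subunit transcripts did not keep 1 proportion.

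C9, the component that polymerises into the wall of the pore, ranged from 12258 through 16499.5 to 19120.0 in WT and from 5171 through 6152 to 9124 in the libraries labelled Trib1-KO. Without overlap, it was 2.5-fold lower (-1.32 ± 0.19, limma adjusted p = 7.3e-06). Cebpa-KO was spread from 10243 to 25659, across the whole WT range, and DKO from 13133 to 21546, overlapping it. Hc, which encodes C5, had values of 25049.7, 34824 and 37246 in WT against 18996, 19781 and 25193 in the libraries labelled Trib1-KO. Only the library D2 reached the WT range, and Hc was -0.65 ± 0.21 (limma adjusted p = 0.025, exact permutation p = 0.00433). That call ended without the WT library A3 or B2 (limma adjusted p up to 0.054) and under scaling without the major urinary protein genes (-0.40, limma adjusted p = 0.13) or quantile normalization (-0.28, 0.31).

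C6, which binds C5b to start the complex, went the other way. Its lowest, median and highest values were 6314, 8067 and 10091.5 in WT, 16374, 18085 and 19482 in the Trib1-KO-labelled libraries, 1617, 2333 and 5136 in Cebpa-KO and 2784, 4677 and 6617 in DKO. Trib1-KO-labelled libraries thus all lay above WT and Cebpa-KO libraries all below it, while DKO overlapped both Cebpa-KO and WT. C6 was 2.23-fold higher in the libraries labelled Trib1-KO (1.16 ± 0.23, limma adjusted p = 0.00041), 3.27-fold lower in Cebpa-KO (-1.71 ± 0.23, 1.1e-05) and 1.88-fold lower in DKO (-0.91 ± 0.23, 0.015). The high Cebpa-KO value was the library F3, and the next was 2663. C7, which adds to C5b6 and is made outside the hepatocyte, stayed at medians of 46.6, 42.7, 45.3 and 41.4 in WT, the Trib1-KO-labelled libraries, Cebpa-KO and DKO, with no call in any comparison.

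**Figure D2:**
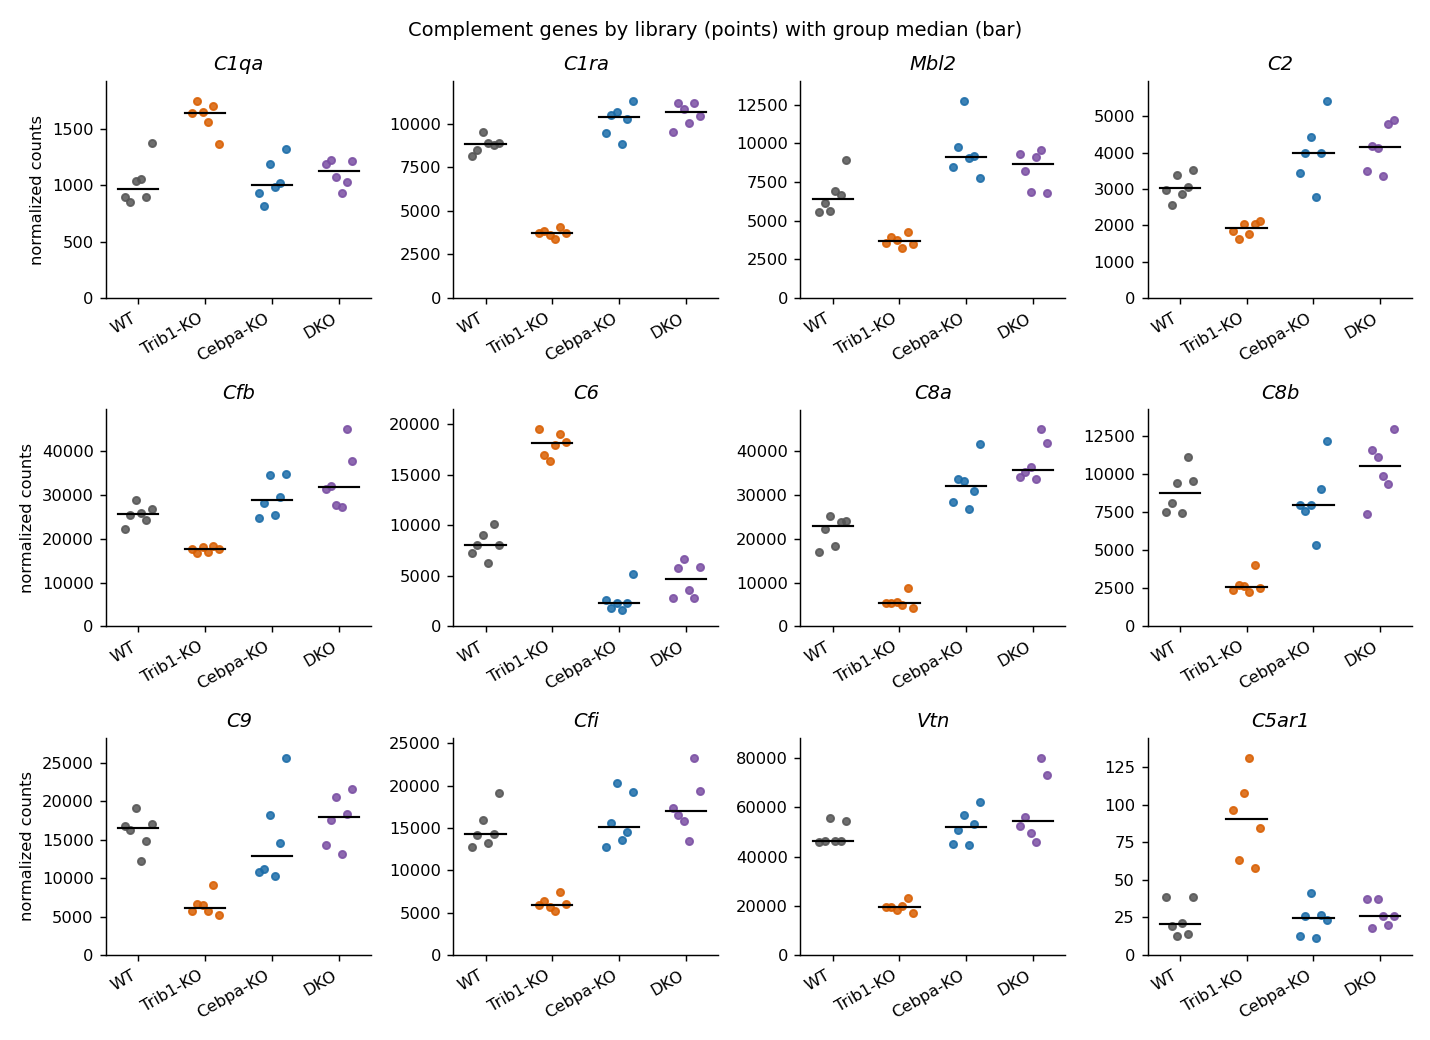
Normalized counts (y axis, from 0) of 12 members in each library (points) by group, with the group median as a bar; Trib1-KO is the group so labelled. C8a falls from a WT median of 23034 to 5331 in the libraries labelled Trib1-KO, where C6 rises from 8067 to 18085, and C6 is lowest in Cebpa-KO at 2333.

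The C1 complex divided within itself. C1qa, C1qb and C1qc encode the 3 chains of C1q and lie next to each other on chromosome 4, with gaps of 3.616 and 2.851 kb. C1qb went from 849, 1008 and 1444 in WT (lowest, median, highest) to 1527, 1822 and 2011 in the libraries labelled Trib1-KO, with 916 to 1388 in Cebpa-KO and 878 to 1399 in DKO. No library labelled Trib1-KO fell into the WT range, and the high WT value was B3. The differences of the chains were 0.68 ± 0.11 (C1qa), 0.80 ± 0.13 (C1qb) and 0.75 ± 0.12 (C1qc), with limma adjusted p of 8.3e-05, 3.1e-05 and 6e-05, and none was called in Cebpa-KO or DKO. C1qa had medians of 967, 1643, 999.6 and 1129.6 in WT, the Trib1-KO-labelled libraries, Cebpa-KO and DKO, and C1qc had 919, 1649.6, 999 and 1154; for both, D3 of the libraries labelled Trib1-KO lay below B3 and above the other WT libraries.

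The proteases that C1q activates moved against it. C1ra, which encodes C1r, had 8140.3, 8840.1 and 9538 in WT, 3386, 3726 and 4105 in the Trib1-KO-labelled libraries, 8837, 10393 and 11329 in Cebpa-KO and 9519, 10670.1 and 11223 in DKO. At -1.24 ± 0.06 (2.36-fold, limma adjusted p = 3.6e-13) it had the smallest adjusted p of the 33 genes in this comparison, while Cebpa-KO and DKO were above WT by 0.21 ± 0.06 (0.036) and 0.26 ± 0.06 (0.013), with overlap. The Cebpa-KO call ended when any of 9 libraries was left out (A1, A2, B1, B2 or B3 of WT, E2, E3, F2 or F3 of Cebpa-KO, limma adjusted p up to 0.09) and under 4 other settings (up to 0.14).

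C1s1, the protease that cuts C4 and C2, ranged from 11366 through 12167 to 13624 in WT, from 7352 through 8557 to 10788 in the libraries labelled Trib1-KO, from 13228 through 16178.5 to 19479 in Cebpa-KO and from 16679.7 through 18596 to 19499.7 in DKO. The order of the groups was that of C1ra, and DKO did not overlap WT. C1s1 was lower by -0.52 ± 0.09 in the libraries labelled Trib1-KO (limma adjusted p = 0.0002) and higher by 0.38 ± 0.09 in Cebpa-KO (0.0092) and 0.58 ± 0.09 in DKO (0.00032). C1rl, a C1r-like protease 1.761 kb from C1ra, was lower in the libraries labelled Trib1-KO (-0.39 ± 0.08, limma adjusted p = 0.00041), a call that ended under scaling without the major urinary protein genes (-0.14, 0.12). Near-identical copies of C1ra and C1s1, C1rb and C1s2, lie in the same cluster at means of at most 12.3 and 4.0 normalized counts, and how reads were divided between copies was not given in the sources used here.

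Of the lectin pathway, 3 of 4 members were lower in the libraries labelled Trib1-KO. Mbl2 and Mbl1 encode the mannose-binding lectins C and A. Mbl2 had 5589.9, 6379.8 and 8950.0 in WT and 3257, 3659.6 and 4246 in the libraries labelled Trib1-KO. Cebpa-KO reached 7729, 9088 and 12754 and DKO 6822, 8636 and 9598. With no overlap with WT in the first case, the differences were -0.83 ± 0.12 (limma adjusted p = 1.2e-05), 0.51 ± 0.12 in Cebpa-KO (0.0058) and 0.33 ± 0.12 in DKO (0.12, not called).

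Mbl1 ranged from 3341 through 3919 to 5855 in WT, from 2078 through 2440.1 to 2822 in the libraries labelled Trib1-KO, from 4430.0 through 4758 to 5707 in Cebpa-KO and from 4260.2 through 4971 to 5894 in DKO. The single fall was -0.75 ± 0.11 (limma adjusted p = 1.5e-05). Masp2 encodes the protease that lectin complexes use to cut C4, and it was tight within groups: 5036, 5453 and 5574 in WT and 3347, 3598 and 3920.1 in the libraries labelled Trib1-KO, with medians of 5204 in Cebpa-KO and 5291 in DKO. The change of -0.57 ± 0.06 had a limma adjusted p of 3.6e-08. Masp1, the protease that activates MASP-2, had medians of 4478, 4294, 3628 and 3995 in the same order of groups, was not called in the libraries labelled Trib1-KO (-0.04 ± 0.07) and was lower in Cebpa-KO (-0.28 ± 0.07, limma adjusted p = 0.014). The latter call ended when only these groups were fitted (0.063), and scaling without the major urinary protein genes turned the former difference to 0.20 (0.045).

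C4b, C2 and C3 feed the C3 convertases. C2 had 2554, 3019.6 and 3530.2 in WT, 1627, 1935 and 2125 in the Trib1-KO-labelled libraries, 2780.0, 3998 and 5427 in Cebpa-KO and 3359, 4161 and 4895 in DKO. It was lower without overlap in the libraries labelled Trib1-KO (-0.68 ± 0.13, limma adjusted p = 0.00019) and higher in DKO (0.43 ± 0.13, 0.04). The DKO call ended when any of 8 libraries was left out (A1, A2, B1 or B2 of WT, G2, G3, H2 or H3 of DKO). It also ended under scaling without the major urinary protein genes and without the filter on low values or the intensity trend (limma adjusted p up to 0.067).

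C3 and C4b varied widely within groups and were called in no comparison. C3 ran from 125946 to 236385 in WT, 173631 to 247881 in the libraries labelled Trib1-KO, 108926 to 227517 in Cebpa-KO and 117649 to 439681 in DKO, and its difference in the libraries labelled Trib1-KO was 0.36 ± 0.27 (limma adjusted p = 0.38). C4b ran from 31741 through 41693 to 59849 in WT, from 32032 through 36531 to 45812 in the libraries labelled Trib1-KO, from 21413 through 26833 to 65562 in Cebpa-KO and from 25671 through 41963 to 62856 in DKO, all overlapping. Its near-identical neighbour C4a, annotated as a processed transcript, had a mean of 1581 in WT, and the division of reads between them is uncertain.

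Of the alternative pathway, Cfb fell and Cfp rose in the libraries labelled Trib1-KO. Cfb, which encodes factor B, the catalytic part of the alternative convertase, had 22151, 25661 and 28808 in WT, 16776, 17640.5 and 18339 in the Trib1-KO-labelled libraries, 24749, 28806 and 34648 in Cebpa-KO and 27168, 31665.5 and 44939 in DKO. It was apart from WT in the first case (-0.54 ± 0.11, limma adjusted p = 0.00047) and higher in DKO (0.37 ± 0.11, 0.036), a call that ended when any of 8 libraries was left out (A1, A2, B1 or B2 of WT, G1, G2, H2 or H3 of DKO). The DKO call also ended without the filter on low values or the intensity trend, with array weights, and when only these groups were fitted (limma adjusted p up to 0.12). Cfb and C2 are transcribed from the same strand with 85 bases between them, so reads running past the end of C2 could enter Cfb; this was not tested.

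Cfp encodes properdin, which stabilises the alternative convertase. Its values were 375, 491.5 and 622 in WT, 516, 684 and 881 in the Trib1-KO-labelled libraries, 437, 483 and 579.8 in Cebpa-KO and 465, 569.9 and 691 in DKO. The groups overlapped, and the rise was 0.46 ± 0.12 (limma adjusted p = 0.0063, exact permutation p = 0.0108). Cfd was at 0 to 69.9 normalized counts and was called in no comparison. In WT, Cebpa-KO and DKO 1 library each held the high value (69.9, 61.1 and 51.3). The adipocyte markers Adipoq, Plin1, Retn and Lep summed to at most 7.25 in any library of these groups, and Lep was at 0 in every library. For the libraries labelled Trib1-KO that sum was 7.38 to 16.7, and Cfd was 4.26 to 10.3. Of the 4 markers, Retn alone had no overlap between these libraries and WT, and 1 of the 4 averaged enough to be tested. Adipoq was 0 to 3.42 in these libraries and 0 to 2.16 in WT, so the sum does not stand for the markers as a set. The part of adipose tissue in the Cfd values was not tested.

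Of the 5 soluble regulators 4 were lower in the libraries labelled Trib1-KO, the exception being C4bp. Vtn had 46057, 46429 and 55565 in WT, 16984, 19530.3 and 23257 in the Trib1-KO-labelled libraries, 44666, 52155 and 62138.5 in Cebpa-KO and 45999, 54298 and 80238 in DKO. The fall was 2.52-fold (-1.33 ± 0.12, limma adjusted p = 5.6e-09), and the other groups covered the WT range. Cfi encodes factor I, the protease that inactivates C3b and C4b, and went from 12707, 14244.5 and 19123 in WT to 5186, 5951 and 7416 in the libraries labelled Trib1-KO, with 12796.5 to 20349.8 in Cebpa-KO and 13479 to 23305 in DKO. It was 2.44-fold lower in the libraries labelled Trib1-KO (-1.29 ± 0.13, limma adjusted p = 4.1e-08).

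Serping1 encodes C1 inhibitor. It ranged from 17895 through 19694 to 21154.5 in WT, from 10420.1 through 11504 to 13596 in the libraries labelled Trib1-KO, from 12612 through 14591 to 25026 in Cebpa-KO and from 15541 through 20592 to 30345 in DKO. It was lower in the libraries labelled Trib1-KO (-0.75 ± 0.15, limma adjusted p = 0.00047). Clu, at 29411 to 37430 in WT and 20335 to 25724 in the libraries labelled Trib1-KO, differed by -0.56 ± 0.16 (limma adjusted p = 0.0098), a call that ended under quantile normalization or scaling without the major urinary protein genes (limma adjusted p up to 0.25). C4bp, the C4b-binding cofactor of factor I, had medians of 12361.5 in WT, 13714 in the libraries labelled Trib1-KO, 8869 in Cebpa-KO and 11089 in DKO. It was not called in the second of these (0.11 ± 0.12) and was lower in Cebpa-KO (-0.41 ± 0.12, limma adjusted p = 0.031), a call that ended without A2 or A3 of WT or E1, E2, F1 or F2 of Cebpa-KO (up to 0.084). Quantile normalization or fitting without the intensity trend ended it as well (limma adjusted p up to 0.051).

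The anaphylatoxin receptors had the largest rises. C5ar1, the receptor of C5a on neutrophils and macrophages, had 12.6, 20.3 and 38.7 in WT, 57.7, 90.4 and 131 in the Trib1-KO-labelled libraries, 11.5, 24.7 and 41.2 in Cebpa-KO and 18.1, 25.7 and 37.5 in DKO. C3ar1, the receptor of C3a, had 56.8, 73.5 and 81.7 in WT, 157, 191 and 217 in the Trib1-KO-labelled libraries, 79.96, 97.3 and 102 in Cebpa-KO and 59.6, 102 and 122 in DKO. For both genes the libraries labelled Trib1-KO lay above all 18 others. C5ar1 was 3.81-fold higher than in WT (1.93 ± 0.32, limma adjusted p = 6.3e-05) and C3ar1 2.62-fold (1.39 ± 0.15, 1.2e-07).

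Membrane regulators protect host cells from their own complement, and 1 of the 3 was called in the libraries labelled Trib1-KO. Cd59a, which encodes the inhibitor of C9 insertion, had 1009, 1153 and 1307 in WT and 1349, 1466 and 1575 in the libraries labelled Trib1-KO, with medians of 1083 in Cebpa-KO and 1166 in DKO. Without overlap, the rise was 0.36 ± 0.07 (limma adjusted p = 0.00045), with the division of reads between Cd59a and its copy Cd59b, 4.613 kb away, uncertain. Cd55, decay-accelerating factor, was called in Cebpa-KO and in no other comparison with WT: 371, 396 and 443 in WT, 351, 394 and 459.8 in the Trib1-KO-labelled libraries, 455, 504 and 649 in Cebpa-KO and 311, 424 and 465.98 in DKO. Its rise of 0.37 ± 0.10 had a limma adjusted p of 0.017, which became 0.056 without the library E2 and 0.059 under scaling without the major urinary protein genes. Cr1l (Crry), the broad rodent C3 regulator, was called nowhere, with group medians of 854 to 938.

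**Figure D3:**
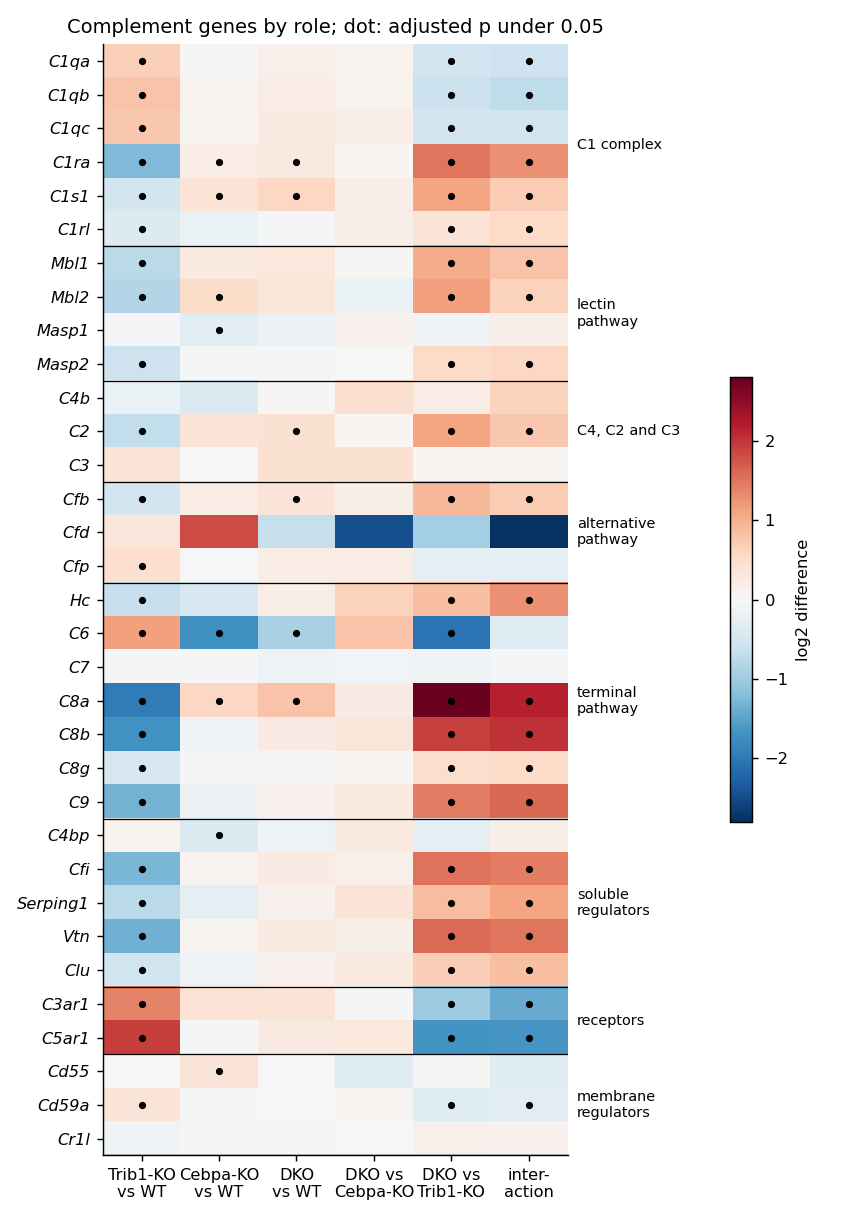
Log2 differences (colour, symmetric about 0) of the 33 members, in rows by role, for the 6 comparisons in columns; a dot marks a limma adjusted p under 0.05, and Trib1-KO is the group so labelled. In the left column C8a (-1.96) and C5ar1 (1.93) are the extremes, and the DKO vs Cebpa-KO column has no dot.

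Markers of other cells differed between the groups as well. Of 12 macrophage and Kupffer cell markers 9 were higher in the libraries labelled Trib1-KO and none in Cebpa-KO or DKO, and none of the 12 was at 0. Their summed level was 8051 to 14260.5 in WT, 14265 to 18100 in the libraries labelled Trib1-KO, 10375 to 13860 in Cebpa-KO and 9099.8 to 14909.5 in DKO. The C1q chains summed to a median of 0.297 of the marker sum in WT, 0.329 in the libraries labelled Trib1-KO, 0.270 in Cebpa-KO and 0.285 in DKO, and these ratios overlapped (0.278 to 0.332 in WT and 0.255 to 0.365 in the libraries labelled Trib1-KO). Neutrophil markers were higher for 3 of the 4 tested, at a sum of 59.98 to 133 in WT and 121 to 386 in the libraries labelled Trib1-KO. That sum was 91.9 to 333 in Cebpa-KO and 106 to 418 in DKO, where 1 of the 4, Retnlg, was called higher and no myeloid-made complement gene was; the median difference of the 4 from WT was 1.23 in the libraries labelled Trib1-KO, 0.82 in Cebpa-KO and 1.31 in DKO. The part of macrophages and neutrophils in the rise of the myeloid-made genes was not tested. Of 7 hepatocyte markers 4 were lower in the libraries labelled Trib1-KO, 3 were not called and none was at 0. Their differences ran from -2.02 (Alb) to -0.017, with a median of -0.213. The part of this in the fall of the hepatocyte-made genes was not tested.

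**Figure D4:**
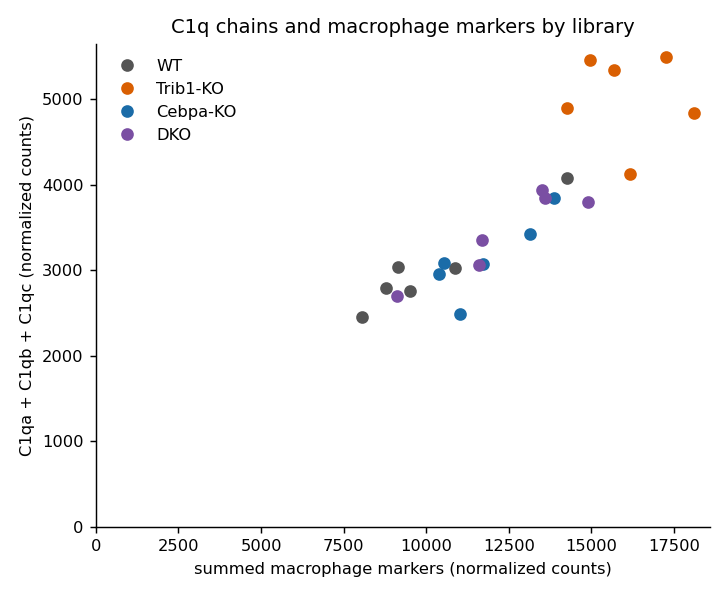
Sum of C1qa, C1qb and C1qc (y axis) against the sum of 12 macrophage and Kupffer cell markers (x axis), both in normalized counts, for each of 24 libraries coloured by group; Trib1-KO is the group so labelled. The libraries labelled Trib1-KO lie at 14265 to 18100 of the markers, a range that 1 DKO library enters at 14909.5, and the WT library at 14260.5 is the highest of WT on both axes.

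The Cebpa-KO libraries differed from WT in 8 members, spread over the pathways. In this comparison 5 members were higher (C1ra, C1s1, Mbl2, C8a and Cd55), 3 were lower (C6, Masp1 and C4bp) and 25 were not called, and the median was 0.012 against 0.0089 over all genes. Among all genes 9.82% were called, 4.6% higher and 5.22% lower. All Cebpa-KO libraries were above WT for C8a and Cd55 and below it for C6, as in 2.52% and 2.65% of all genes. Of the hepatocyte-made genes 4 were higher and 3 lower, and of the 6 myeloid-made genes limma called 0, with 1 (C3ar1, 0.41 ± 0.15) at an unadjusted p under 0.05. Without the DKO library H2, which shares in the estimate of the spread, C3ar1 was called here (limma adjusted p = 0.039). The library F3 was the highest of its group for 19 of the 22 hepatocyte-made genes and F1 the lowest for 12. Without F3 the counts were 4 higher and 4 lower, the latter including Hc. Without E2 only 3 were higher, and 3 also under scaling without the major urinary protein genes. Summed cholangiocyte markers were 2576 to 7823 in this group and 1078 to 1481 in WT, but of the 5 only Spp1 was higher (1.66), 4 were below 0 and Sox9 was called lower (-1.88); their part in these differences was not tested.

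DKO against WT gave 5 higher members (C1ra, C1s1, C2, Cfb and C8a), 1 lower member (C6) and 27 not called. Of all genes 6.09% were called, 2.84% higher and 3.25% lower, and the median of the members was 0.19 against 0.0032. None of the 6 myeloid-made genes was called by limma, and 1 (C3ar1, 0.38 ± 0.15) had an unadjusted p under 0.05. C3ar1 was called when the DKO library H2 was left out (limma adjusted p = 0.021). C8a and C1s1 were the 2 members whose DKO libraries all exceeded WT (1.55% of all genes did so), and in 0 members did all fall below it (1.56%). The number of higher members was 3 when any of 6 libraries (A1, A2, B1, B2, G2 or H3) was left out and 6 without B3.

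DKO and Cebpa-KO, which differ in floxed Trib1, gave limma no call among the members, 0 of 33, where 0.202% of all genes were called (0.0808% higher and 0.121% lower), and 7 had an unadjusted p under 0.05. In 0 members did the groups separate, against 0.273% of all genes higher and 0.439% lower without overlap. The largest of these was Cfd (-2.46 ± 0.87, limma adjusted p = 0.34), then C6 (0.80 ± 0.23, 0.18), and 28 of the 33 differences were above 0, with a median of 0.16 where that of all genes was -0.0006. The library H1 was the lowest of DKO for 16 of the 22 hepatocyte-made genes and H2 the highest for 12. C6 became the 1 called member when the Cebpa-KO library F3 was left out (limma adjusted p = 0.017).

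Whether floxed Trib1 went with the same change in both Cebpa states was tested by the interaction, the difference of DKO from Cebpa-KO minus that of the libraries labelled Trib1-KO from WT. Of the 33 members 17 had a positive interaction and 6 a negative one, against 6.35% and 6.22% of all genes (12.6% in either direction). The 17 were the hepatocyte-made genes that were lower in the libraries labelled Trib1-KO, led by C8a (2.18 ± 0.20, limma adjusted p = 2.5e-08), C8b (2.02 ± 0.23, 8.9e-07), C9 (1.599 ± 0.26, 0.00013), Vtn (1.51 ± 0.17, 6.1e-07) and Cfi (1.43 ± 0.18, 4.9e-06). The 6 were C1qa, C1qb, C1qc, C3ar1, C5ar1 and Cd59a. The interaction takes in the difference of the libraries labelled Trib1-KO from WT with its sign reversed. The match of its calls with those of that comparison is thus partly built in and is no separate evidence. C6 was an exception, with differences of 1.16 ± 0.23 and 0.80 ± 0.23 in the 2 states and an interaction of -0.36 ± 0.32 that was not called (limma adjusted p = 0.55). Cfp was another: called higher in the libraries labelled Trib1-KO, it was called neither in the interaction nor in DKO against those libraries. Scaling without the major urinary protein genes gave both of these calls.

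The calls of Cd59a and C1qc were narrow: they ended in 19 and 13 of the 24 fits that left out 1 library. Of the 17 positive interactions, quantile normalization ended the calls of Cfb (0.37, limma adjusted p = 0.054), Clu (0.46, 0.12) and Mbl2 (0.50, 0.056), and scaling without the major urinary protein genes those of Mbl2 (0.40, 0.097) and C8g (0.30, 0.06). Set directly against the libraries labelled Trib1-KO, DKO had 17 higher and 7 lower members (14.6% and 15.7% of all genes, 30.3% in either direction), with C8a 6.77-fold higher (2.76 ± 0.14, limma adjusted p = 9.2e-14) and C6 4.18-fold lower (-2.06 ± 0.23, 8.3e-08). In 15 members all DKO libraries were above and in 6 all were below the libraries labelled Trib1-KO (8.14% and 8.74% of all genes). This comparison shares its libraries with those above, so its counts are no separate evidence.

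**Figure D5:**
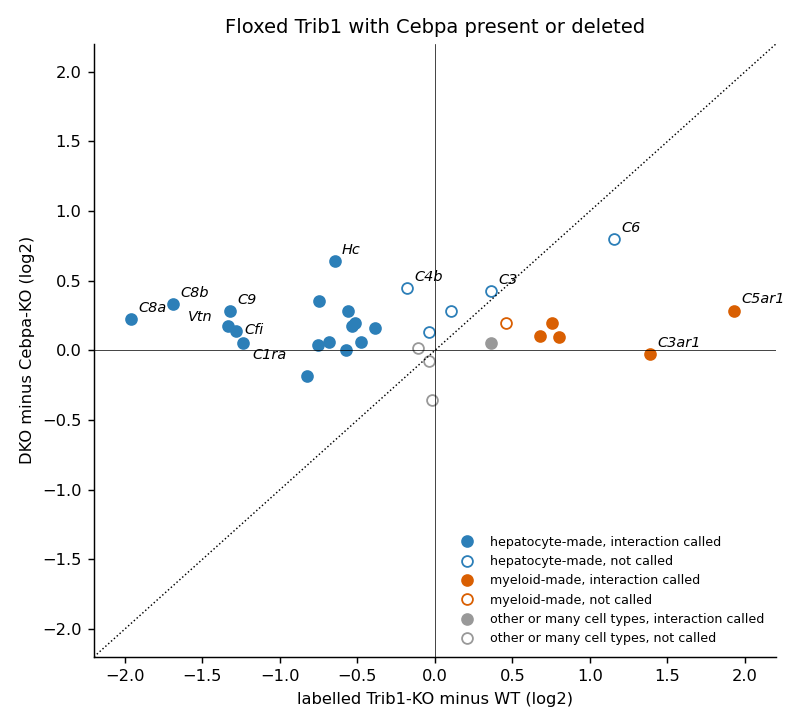
Log2 difference of DKO from Cebpa-KO (y axis) against that of the libraries labelled Trib1-KO from WT (x axis), on equal scales, for 32 members coloured by source and filled where the interaction was called; the dotted line marks equal differences. Cfd, at 0.31 and -2.46, is off the plot. C8a lies at -1.96 and 0.22, while C6 lies nearer the line at 1.16 and 0.80.

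Among 25 further complement genes, 24 were tested, and Fcnb (ficolin B) was at 0 in every library. In the libraries labelled Trib1-KO 4 were higher and 7 lower, where 11.8% and 10.9% of all genes were. Cfhr3 (-1.71 ± 0.16, limma adjusted p = 1.4e-08) and Cfhr2 (-0.60 ± 0.06, 1.3e-07) were lower, as was Cpn2, the carrier subunit of the carboxypeptidase that inactivates anaphylatoxins (-0.62 ± 0.11, 0.00019). Vsig4, the Kupffer cell receptor of C3 fragments (0.60 ± 0.11, 0.00018), and Cd93 (0.77 ± 0.13, 5.6e-05) were higher. Reads of Cfhr2 and Cfhr3 may be shared with near-identical copies, and Cfhr3 is annotated as a pseudogene.

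In Cebpa-KO 2 of the 24 were higher and 3 lower, where 4.6% and 5.22% of all genes were. In DKO 2 were higher and 2 lower, against 2.84% and 3.25% of all genes. Cfhr3 was higher in both, by 0.80 ± 0.16 in Cebpa-KO (limma adjusted p = 0.0014) and 0.83 ± 0.16 in DKO (0.0017). Susd4, a membrane inhibitor of the C3 convertase, was 12.5-fold lower in Cebpa-KO (-3.65 ± 0.25, limma adjusted p = 2.4e-10) and 8.87-fold lower in DKO (-3.15 ± 0.25, 6.8e-09). It had 689.5 to 1097 normalized counts in WT, 44.1 to 101 in Cebpa-KO and 50.7 to 210 in DKO, against 822 to 1035 in the libraries labelled Trib1-KO. Cpn1 was lower by -0.36 ± 0.06 and -0.34 ± 0.06, and C4a was lower in Cebpa-KO (-1.82 ± 0.46, limma adjusted p = 0.01).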

How the data were processed

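The authors deposited 1 table of liver genes by 24 libraries. Its values are taken as a signal, normalized estimated counts of reads per gene: the submitters' processing notes name Salmon, DESeq2 and the GRCm38.p6 build, the versions and the counting of strand were not given in the sources used here, and 65 to 68.7% of the low values came out as whole reads (within 0.02), so no count model was used. Columns map to groups by name and each group's libraries are separate mice, but which cohort a column belongs to was not given in the sources used here, so no cohort term was fitted. limma 3.58.1 in R 4.3.3 was fitted, with an intensity trend, to log2 of the value plus 1 in 1 model of 4 group means, with 6 comparisons. Single genes also had a 2-sided exact permutation test over libraries. The script was tested on simulated data. Positions and names are from GENCODE release 21 of the mouse, where 112 of 112 identifiers matched. The members and lists were chosen with earlier results of these data known. Values in every group are given for members called in any comparison with a log2 difference of at least 1 and a mean of at least 10, and for the 2 members of each role with the smallest adjusted p; further complement genes are named up to 6 per comparison with WT, by adjusted p, and 1 gene of that list is not reported here. Alternatives were the pseudocount (0.5 and 5), the minimum mean (10 and none), scaling without 22 Mup genes, quantile normalization, fitting only the groups compared, no trend, array weights and leaving out each library.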

Additional observations from a re-analysis of the deposited data

Results flagged for a closer look

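Of 132 pairs of a member and a group of 6 libraries, 9 held a library set apart from the other 5 by Dixon's criterion, where chance gives about 1 in 20. In the libraries labelled Trib1-KO, D2 was the high one for C8a (8907, next 5529), C8b (4042, next 2698), C9 (9124, next 6624) and Hc (2.519e+04, next 2.044e+04), all in normalized counts, so these terminal genes were flagged through 1 mouse. C6 was high in F3 of Cebpa-KO (5136, next 2663) and C1qb in B3 of WT (1444, next 1040). Cfd was high in 1 library each of WT (A3, 69.89, next 17.89), Cebpa-KO (F1, 61.07, next 22.9) and DKO (G1, 51.34, next 5.13).

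The difference that went with floxed Trib1 was itself different between the Cebpa states for 23 members by limma's interaction test. On the log2 scale the interaction was negative for C5ar1 (-1.647), C3ar1 (-1.415), C1qb (-0.7004), C1qa (-0.5729), C1qc (-0.5582) and Cd59a (-0.3033). It was positive for the complexes' proteases and lectins C1rl (0.5471), Masp2 (0.5784), Mbl2 (0.6393), C1s1 (0.7119), Mbl1 (0.7881) and C1ra (1.29) and for the convertase genes Cfb (0.7114) and C2 (0.7453). Of the terminal genes it was positive for C8g (0.5395), Hc (1.288), C9 (1.599), C8b (2.022) and C8a (2.182), and of the soluble regulators for Clu (0.8381), Serping1 (1.103), Cfi (1.427) and Vtn (1.507).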

How the results depend on the processing

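Over 6 comparisons of 33 members, 86 of 198 differences were called, and none of the 86 changed sign under the 9 other settings or the 24 fits without 1 library, while 40 of the 112 not called did in at least 1 of them. Members called higher in Cebpa-KO against WT numbered 5, against 3 with scaling without the Mup genes and 3 to 6 without 1 library (3 without E2). Those called higher in DKO against WT numbered 5, against 3 with no filter on low values or no intensity trend and 3 to 6 without 1 library. Members called higher in DKO against Cebpa-KO numbered 0, with 0 to 1 without 1 library (C6, without F3). Other complement genes called higher in DKO against WT numbered 2, with 2 to 4 without 1 library (4 without H1). With scaling without the Mup genes, those called lower numbered 10 in place of 6 in DKO against the group labelled Trib1-KO and 4 in place of 2 in the interaction. Of the further genes' called differences, those of C1qbp changed sign there, to 0.04404 (limma adjusted p = 0.72) in that group against WT and -0.02189 (0.86) in DKO against it, and Masp1, not called before, turned to 0.203 (0.045) in that group against WT; the cause was not tested. That scaling also ended the calls of C1rl, Clu and Hc in the comparison of the libraries labelled Trib1-KO with WT, and of C8g and Mbl2 in the interaction, and added C4bp as higher in the former. Quantile normalization ended the interaction calls of Cfb, Clu and Mbl2. Low values limit what can be seen of Cfd and C7, and the number of mice what can be seen of C3 and C4b. No paired analysis was possible because the columns carry no mouse number shared between groups.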
